A study of Homo sapiens with 3 samples.

Results

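Clusters that the authors annotated to retained-intron transcripts, to transcripts subject to nonsense-mediated decay, or to pseudogenes made up 359 of the 115227 binding clusters listed for 3 PAR-CLIP libraries of the nuclear RNA-binding protein MATR3. They were chosen by their annotation alone: a cluster was taken as a member when its annotation value held the word retained, nonsense or pseudogene, was a single value without a hyphen, and the cluster did not lie on the mitochondrial chromosome. Members numbered 267 of 87230 clusters in the first wild-type library (WT rep 1), 89 of 27155 in the second (WT rep 2), and 3 of 842 in the MATR3 knockout (KO) library. They carried 7 distinct annotation values. WT cells were HAP1, a near-haploid line derived from KBM-7 chronic myeloid leukaemia cells. The KO was a purchased HAP1 line lacking MATR3, sequenced as 1 library and named in the design as the negative control. Both genotypes were grown in the same medium and UV-crosslinked. Their RNA was digested with RNase T1 and recovered on anti-FLAG beads, although the labels record no tag on MATR3. The cell type could not be checked against marker genes, because cluster tables do not measure transcript levels.

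In PAR-CLIP, thiouridine built into RNA crosslinks to a bound protein and is then read as C, so T-to-C changes mark contacts. RNase T1 cuts RNA after G. MATR3 binds pyrimidine-rich RNA, largely in introns, and takes part in splicing. Nonsense-mediated decay removes transcripts with a premature stop codon. Retained-intron transcripts keep an intron that the coding isoforms lose, and often stay in the nucleus. Processed pseudogenes are reverse-transcribed copies of mRNAs, unprocessed pseudogenes arose by duplication, and a unitary pseudogene is a gene that lost its function without a working copy.

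The following member sequences carry the results given further on. All are the deposited sense-strand sequences, 5′ to 3′, with positions on hg38 (GRCh38.p5, per the submitters' processing notes), and capitals mark the longest unbroken run of C and T in each. The first group holds members found at overlapping positions in both WT libraries, shown as called in WT rep 1.
PSMB4 retained intron, chr1:151401900-151401936, plus strand: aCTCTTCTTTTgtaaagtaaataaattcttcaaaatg
GPR135 decay, chr14:59453646-59453682, minus strand: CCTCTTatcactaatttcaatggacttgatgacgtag
GPR135 decay, chr14:59431553-59431585, minus strand: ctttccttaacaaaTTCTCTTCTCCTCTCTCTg
APC decay, chr5:112716954-112716990, plus strand: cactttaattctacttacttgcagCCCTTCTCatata
MAGI2-AS3 retained intron, chr7:79458249-79458284, plus strand: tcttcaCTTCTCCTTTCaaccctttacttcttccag
NHSL1 retained intron, chr6:138670840-138670881, minus strand: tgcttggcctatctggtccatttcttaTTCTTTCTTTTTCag
AC005154.6 retained intron, chr7:30591193-30591225, minus strand: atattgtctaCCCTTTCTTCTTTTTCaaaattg
MTND4P12 processed pseudogene, chr5:134927050-134927086, minus strand: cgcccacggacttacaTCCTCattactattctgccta

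The second group shows the 3 members of the KO library.
RP11-252A24.2 retained intron, chr16:74364279-74364306, minus strand: tgagaggtggggataTTTTCaaacccag
RGS12 retained intron, chr4:3299824-3299854, plus strand: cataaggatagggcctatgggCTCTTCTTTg
BRD9 retained intron, chr5:856817-856843, minus strand: TTggtgtgtgtggtgtgcagtgtgtag

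The third group shows pseudogenes of mitochondrial genes that share stretches with mitochondrial clusters, and then an abutting pair of clusters in TIAL1, the first called in WT rep 1 and the second in WT rep 2.
MTCO1P12 unprocessed pseudogene, chr1:631376-631409, plus strand: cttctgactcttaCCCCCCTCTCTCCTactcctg
MTND4P35 processed pseudogene, chr5:100049530-100049562, minus strand: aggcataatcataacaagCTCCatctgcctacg
TIAL1 decay, chr10:119596630-119596668, minus strand: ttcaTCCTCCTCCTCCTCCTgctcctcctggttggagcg
TIAL1 decay, chr10:119596669-119596694, minus strand: cctggctggtggcggcggccaTTTTg

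The libraries differed in size, with 2668797 cluster reads in WT rep 1, 1558995 in WT rep 2 and 224142 in KO. The tables list only clusters of at least 5 reads and 2 converted positions, so sequencing depth is unknown and a gene without a listed cluster has no measured upper limit. The design calls the WT libraries independent replicates, and nothing in the labels says whether they came from separate cultures. The genotypes were compared without a test, because KO is 1 library: with 3 libraries the smallest p a permutation allows is 0.333. Intervals are 95% Wilson intervals. They cover counting error only, and they treat clusters as independent although members of 1 gene share a transcript.

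The first comparison concerns how much of the WT binding fell in these transcripts. Members held 0.306% (interval 0.272 to 0.345%) of the clusters of WT rep 1 and 0.328% (0.266 to 0.403%) of those of WT rep 2, which averages 0.317% ± 0.0153 (SD, n = 2). In KO the share was 0.356%, from 3 clusters, with an interval of 0.121 to 1.04% that holds both WT values. Of the reads in clusters, members held 0.286% (7620 reads) in WT rep 1, 0.327% (5104 reads) in WT rep 2 and 0.286% (641 reads) in KO. The share of members was therefore alike in the WT libraries, and a difference from KO was not detectable with 3 KO members.

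Decay transcripts gave the most members. They numbered 140 in WT rep 1, or 52.4% of its members (46.5 to 58.3%), and 39 in WT rep 2, or 43.8% (34.0 to 54.2%). Retained-intron transcripts gave 71 members (26.6%, 21.7 to 32.2%) and 33 members (37.1%, 27.8 to 47.5%). The intervals of each value overlapped between the libraries. Pseudogenes of all kinds gave 56 members and 17 members. Unprocessed pseudogenes were the main kind, with 41 and 12 members. Processed pseudogenes had 8 and 3, and transcribed unprocessed pseudogenes had 5 and 2. WT rep 1 also held 1 unitary pseudogene member, in DOC2GP with 12 reads, and 1 member with the plain value pseudogene, in RP11-4L24.4 with 16 reads. All 3 KO members were retained-intron clusters.

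**Figure D1:**
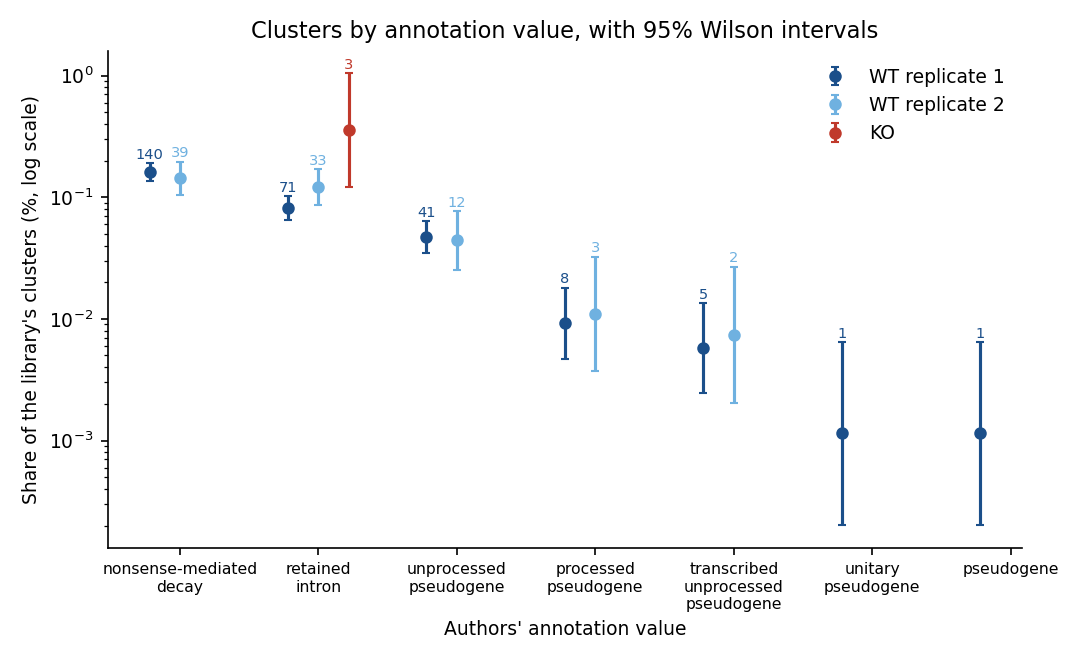
Share of each library's clusters (percent, log scale) that carried each annotation value, with 95% Wilson intervals and the number of clusters above each point. The WT points lie close together for decay transcripts (140 and 39 clusters) and unprocessed pseudogenes (41 and 12). They lie further apart for retained-intron transcripts, at 0.0814% in WT rep 1 and 0.122% in WT rep 2. The single KO point is the 3 retained-intron clusters.

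Members were not spread evenly over genes. They fell in 130 genes in WT rep 1, which is 1.41% of the 9222 genes with any cluster there, and in 51 genes in WT rep 2, or 0.842% of 6060. In WT rep 1, 84 of the 130 genes had a single member, and so did 36 of the 51 genes in WT rep 2. The 5 genes with the most members in a library held 73 of its members (27.3%) in WT rep 1 and 30 (33.7%) in WT rep 2. A total of 35 genes had members in both WT libraries: 26.9% of the 130 (upper bound of the 95% interval 35.1%) and 68.6% of the 51 (upper bound 79.7%). Recurrence as a member is a narrow count, and most of these genes had 1 member to recur. A cluster of any value in the other WT library was found for 62 of the 130 genes (47.7%, 39.3 to 56.2%) and for 40 of the 51 (78.4%, 65.4 to 87.5%). Among all genes with a cluster, the like shares were 60.0% of those of WT rep 1 and 91.4% of those of WT rep 2. Both intervals lie below those values. The 35 genes comprised 16 with decay members, 12 with retained-intron members, 4 unprocessed pseudogenes, 2 transcribed unprocessed pseudogenes and 1 processed pseudogene.

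Among decay transcripts, GPR135, ANO4, APC, TIMM10B and SUMF1 had the most reads over both WT libraries. GPR135, an orphan G protein-coupled receptor, had 11 members with 482 reads in WT rep 1 and 3 members with 435 reads in WT rep 2. ANO4, of the anoctamin family of calcium-dependent channels and lipid scramblases, had 17 members with 588 reads and 4 members with 188 reads. APC, the tumour suppressor that scaffolds the beta-catenin destruction complex, had 11 members with 307 reads and 6 with 189. GPR135 and APC had more reads per member in WT rep 2, the library with the deeper clusters, as had ANO4.

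TIMM10B, a chaperone subunit of the mitochondrial inner-membrane import machinery, had 2 members with 128 reads in WT rep 1 and 1 with 108 reads in WT rep 2. SUMF1, the enzyme that activates sulfatases, had 5 members with 120 reads and 2 with 114. None of these 5 genes had a member in KO.

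Among retained-intron transcripts the leading gene was PSMB4, a beta subunit of the proteasome core, with 525 reads in 2 members of WT rep 1 and 557 reads in 1 member of WT rep 2. NHSL1, a regulator of actin-based cell migration, followed with 19 members and 364 reads in WT rep 1 and 11 members and 357 reads in WT rep 2. TPT1-AS1, a non-coding RNA antisense to TPT1, had 4 members in each library, with 74 and 200 reads. The 3 genes kept similar or higher read totals in the library with fewer clusters.

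The retained-intron list also held MAGI2-AS3, a non-coding RNA antisense to MAGI2, which had 2 members with 17 reads in WT rep 1 and 1 with 151 in WT rep 2. AC005154.6 had 2 members with 33 reads and 1 with 70. Both genes had more member reads in WT rep 2.

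Among pseudogenes, RP11-1134I14.2, an unprocessed pseudogene on chromosome 8, stood out by number, with 15 members and 377 reads in WT rep 1 and 5 members and 79 reads in WT rep 2. RP11-274B21.1 had 2 members with 93 reads and 1 with 51. DPY19L1P1 had 1 member in each library, with 16 and 105 reads, and PPIEL likewise, with 16 and 90. Both of these single members lay at different positions in the libraries.

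Among transcribed unprocessed pseudogenes, RP11-488L18.4 had 26 reads in WT rep 1 and 39 in WT rep 2. IMPA1P had 35 reads in WT rep 1 and no listed member in WT rep 2. Processed pseudogenes were led by MTND4P12, a nuclear copy of the mitochondrial gene for a complex I subunit, with 132 and 130 reads. MTND4P35 (105 reads) and HMGB3P18 (76 reads) each had a member in WT rep 2 alone. No pseudogene had a KO member.

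**Figure D2:**
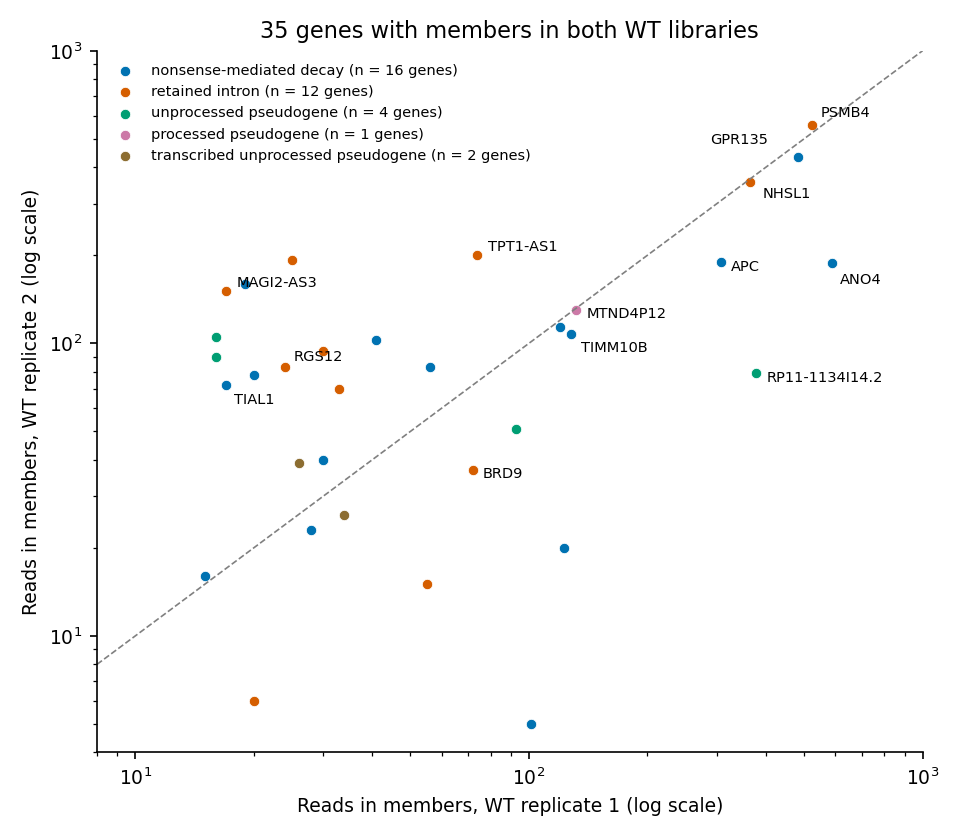
Reads in members per gene in WT rep 1 (horizontal) and WT rep 2 (vertical), both on log scales, for the 35 genes with members in both, coloured by annotation value; the dashed line marks equal reads. PSMB4 (525 and 557), NHSL1 (364 and 357) and MTND4P12 (132 and 130) lie near the line, and RP11-1134I14.2 (377 and 79) lies below it.

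Reads per member followed the libraries. The median member had 19 reads (quartiles 13 and 30) in WT rep 1 and 40 reads (17 and 78) in WT rep 2, against medians of 20 and 39 over all clusters. These reads came from few distinct sequences. Their median was 3 per member in both WT libraries, and also 3 over all clusters of each. In KO it was 4 per member and 7 over all clusters. By value, the medians in WT rep 1 were 20 reads for decay, 17 for retained-intron and 19 for unprocessed pseudogene members, and in WT rep 2 they were 39, 39 and 45.5. The deepest member of both WT libraries was the PSMB4 cluster shown above, with 482 and 557 reads, or 6.33% and 10.9% of all member reads. The 3 KO members, named for BRD9, RGS12 and RP11-252A24.2, had 70, 205 and 366 reads. The last alone was above the KO median of 243 over all clusters.

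The next comparison asked whether members recurred at the same place. In WT rep 1, 14 of 267 members (5.24%, 3.15 to 8.61%) overlapped a cluster of WT rep 2 on the same strand, by 1 nt or more, against 6.0% of all its clusters. In WT rep 2, 15 of 89 members (16.9%, 10.5 to 26.0%) overlapped a cluster of WT rep 1, against 19.5% of all its clusters. Both member intervals hold the value for all clusters. Of the 10 members with 100 or more reads in each library, 2 did so in WT rep 1 and 5 in WT rep 2, where 962 of 3161 and 1349 of 4492 clusters of that depth did.

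No member of a WT library overlapped a KO cluster. Over all clusters that share was 0.0504% in WT rep 1 and 0.0884% in WT rep 2, and at such shares lists of 267 and 89 members are too short to show a difference. None of the 3 KO members overlapped a WT cluster, where 6.53% of all KO clusters did.

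The overlaps formed 14 member pairs in 9 genes, and both clusters of every pair carried the same annotation value. The same start was called in 11 pairs, the same end in 7, and both in 5. GPR135 and APC gave 3 pairs each, NHSL1 gave 2, and PSMB4, MTND4P12, MAGI2-AS3, AC005154.6, PHF2P2 and RP11-1134I14.2 gave 1 each. One further member of WT rep 2 overlapped a cluster of WT rep 1 that is not a member.

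The PSMB4 pair had identical bounds, with 482 and 557 reads. The GPR135 pairs whose sequences are shown had 71 and 320 reads, and 60 and 32 reads. The deepest APC pair had 37 and 73 reads, and the MAGI2-AS3 pair had 9 and 151. The MTND4P12 pair had 132 and 130. WT rep 2 had the more reads in 9 of the 14 pairs. In that library the 557 PSMB4 reads held 16 distinct sequences, the 320 GPR135 reads 10 and the 151 MAGI2-AS3 reads 4.

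T-to-C changes were rare in the PSMB4 cluster. Of its reads, 13.3% carried one in WT rep 1 and 27.1% in WT rep 2, whereas the median over all clusters was 94.1% and 97.5%. Of all clusters, 0.266% in WT rep 1 and 2.08% in WT rep 2 had a share as low or lower. This cluster ended 1 nt before the end of the RefSeq gene, and its sequence holds AATAAA, the hexamer of cleavage and polyadenylation signals. AATAAA was found in 8 of 267 members (interval 1.53 to 5.80%) and in 1 of 89 (1.12%, 0.199 to 6.09%), against 1.62% and 1.16% of clusters of the same lengths. The second PSMB4 member of WT rep 1, with 43 reads, had 69.8% of its reads converted.

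The other pairs had higher converted shares. In the same GPR135 pairs they were 87.3% and 81.9%, and 73.3% and 100% in WT replicates 1 and 2. MTND4P12 had 65.9% and 74.6%. In 8 of the 14 pairs the share was higher in WT rep 2.

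**Figure D3:**
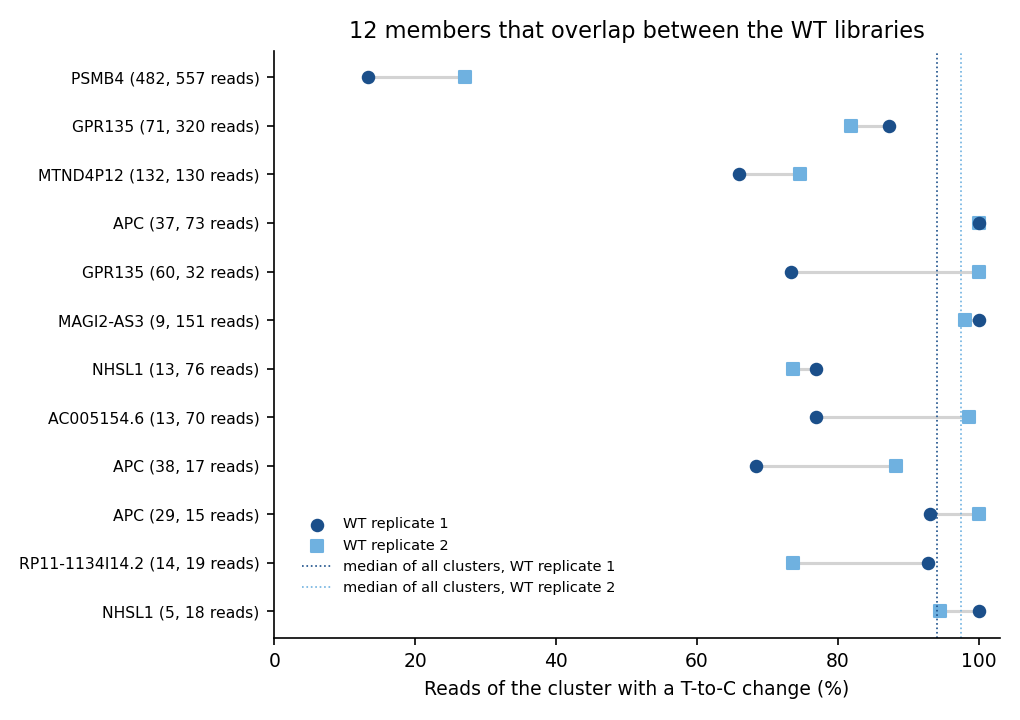
Reads carrying a T-to-C change (percent of the cluster's reads) for 12 of the 14 member pairs that overlap between the WT libraries, ordered by reads, with the reads of each library in brackets; dotted lines are the library medians of 94.1% and 97.5% over all clusters. PSMB4, at 13.3% and 27.1%, lies below every other pair drawn.

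Summed over members, 7.62% of T events (7.46 to 7.79%) were converted in WT rep 1 and 7.36% (7.16 to 7.56%) in WT rep 2. Over all clusters the shares were 7.98% and 7.55%. The member shares depended on PSMB4: without its members they were 8.12% (7.95 to 8.30%) and 8.15% (7.93 to 8.38%). In WT rep 1 that interval holds the value of all clusters, and in WT rep 2 it lies above it. PSMB4 was left out of the members only, and the shares over all clusters still include it and other clusters of low conversion. Retained-intron members, which include PSMB4, had 6.49% and 6.90%, and without it 8.61% and 9.09%. Decay members had 7.86% and 7.35%, and unprocessed pseudogene members 8.26% and 8.91%. T events of 1 read are not independent, so these intervals are narrower than the true uncertainty. The deposited event counts were used as given and do not always match the deposited share of converted reads. An ANO4 member of WT rep 1 with 44 reads had 56.8% of them converted but 12 converted T events. In KO, 15.7% of the 5382 T events of the 3 members were converted, against 9.04% over all KO clusters.

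The base composition of the members followed that of the libraries. T made up 40.1% of member bases in WT rep 1 and 40.6% in WT rep 2, a mean of 40.3% ± 0.394 (SD, n = 2), against 41.0% ± 1.23 over all clusters. Decay members were the richest in T of the 3 main values, with 41.8% and 43.8%. Retained-intron members had 38.9% and 39.1%, and unprocessed pseudogene members 37.9% and 39.5%. The order of decay above the other values was the same in both libraries. The 3 KO members held 32.6% T and 36.0% G, against 33.1% T and 17.9% G over all KO clusters. Their T content was thus that of the KO library. The G-rich BRD9 sequence above has no run of C and T longer than 2 bases. The longest runs of the RGS12 and RP11-252A24.2 sequences were 9 and 5 bases. The median of the 3 members was 5, as it was over all KO clusters.

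The pyrimidine pentamers TTCTT and TTTCT, which can overlap each other, were counted on the sense strand. They occurred at 24.1 per 1000 pentamers of member sequence in WT rep 1 and 32.1 in WT rep 2, a mean of 28.1 ± 5.64 (SD, n = 2), against 27.9 ± 2.45 over all clusters. At least 1 of them was present in 40.1% of members (34.4 to 46.1%) in WT rep 1, where clusters of the same lengths gave 43.0%. In WT rep 2 the share was 47.2% (37.2 to 57.5%), against 44.8%. Unprocessed pseudogene members gave 24.4% (13.8 to 39.3%) in WT rep 1 and 58.3% (32.0 to 80.7%) in WT rep 2, so the libraries did not give 1 direction for them. The second GPR135 sequence above shows a C and T run of 18 bases, and the first, with 71 and 320 reads, has a run of 6.

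Most clusters ended in G, the base after which RNase T1 cuts. In WT rep 1, 71.9% of member sequences ended in G (66.2 to 77.0%), against 73.5% of all clusters. In WT rep 2 the share was 97.8% (92.2 to 99.4%), against 94.4%. Members ending in AG, the last bases of most introns, made up 26.2% (21.3 to 31.8%) and 36.0% (26.8 to 46.3%), against 23.5% and 35.9% of clusters of the same lengths. The MAGI2-AS3 and NHSL1 sequences above end in such a pyrimidine tract followed by AG.

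The KO members did not overlap the WT members of the same genes. The RGS12 member, in a gene for a regulator of G protein signalling, had 205 reads of only 2 distinct sequences, all of them converted. It lay 364 nt from the RGS12 member of WT rep 1 (24 reads) and 4049 nt from that of WT rep 2 (83 reads). The BRD9 member had 70 reads and is named for a gene for a bromodomain protein of chromatin remodelling complexes. By RefSeq it lay downstream of that gene, inside ZDHHC11. It lay 505 nt from the nearest of 4 BRD9 members of WT rep 1 and 3507 nt from the 1 member of WT rep 2. The RP11-252A24.2 member had 366 reads, and the gene had 1 member of 20 reads in WT rep 2, at a distance of 576 nt. All 3 KO genes thus had members in at least 1 WT library, at other positions. Only 6.53% of all KO clusters overlapped a WT cluster, so the other positions are not particular to these 3 members.

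Where several members lay in 1 gene, they ran over long stretches. Of the 46 genes with more than 1 member in WT rep 1, 24 had members more than 5000 nt apart, and the median span was 5451.5 nt. In WT rep 2, 11 of 15 such genes did, with a median of 10743 nt. NHSL1 members spanned 100155 nt and 57968 nt in WT replicates 1 and 2. ANO4 members spanned 51292 nt and 39811 nt, and GPR135 members 22437 nt and 22129 nt. APC members were packed into 8443 nt and 8091 nt. SUMF1 had the longest span, 225149 nt in WT rep 1.

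Few clusters of other values were listed in those stretches, which the outermost members themselves bound. Between the outermost members of the 46 genes in WT rep 1 lay 17 clusters that the authors gave to repeats, 2 intron clusters, both in 1 gene, and no cluster of any other value on the same strand. In the 15 genes of WT rep 2 there were 6 repeat clusters, 4 of them in RP11-1134I14.2 beside its 5 members, and no intron cluster. Yet many of the same genes had intron clusters elsewhere: ANO4 had 36 in WT rep 1 and 3 in WT rep 2, NHSL1 had 24 and 8, and APC had 13 and 3. Genes with 1 member were not part of this count. Stretches without members were not counted beside it, so it has no background. The files do not say which transcript a value came from, or whether a member lies in an exon of it, and exon positions were not used here.

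**Figure D4:**
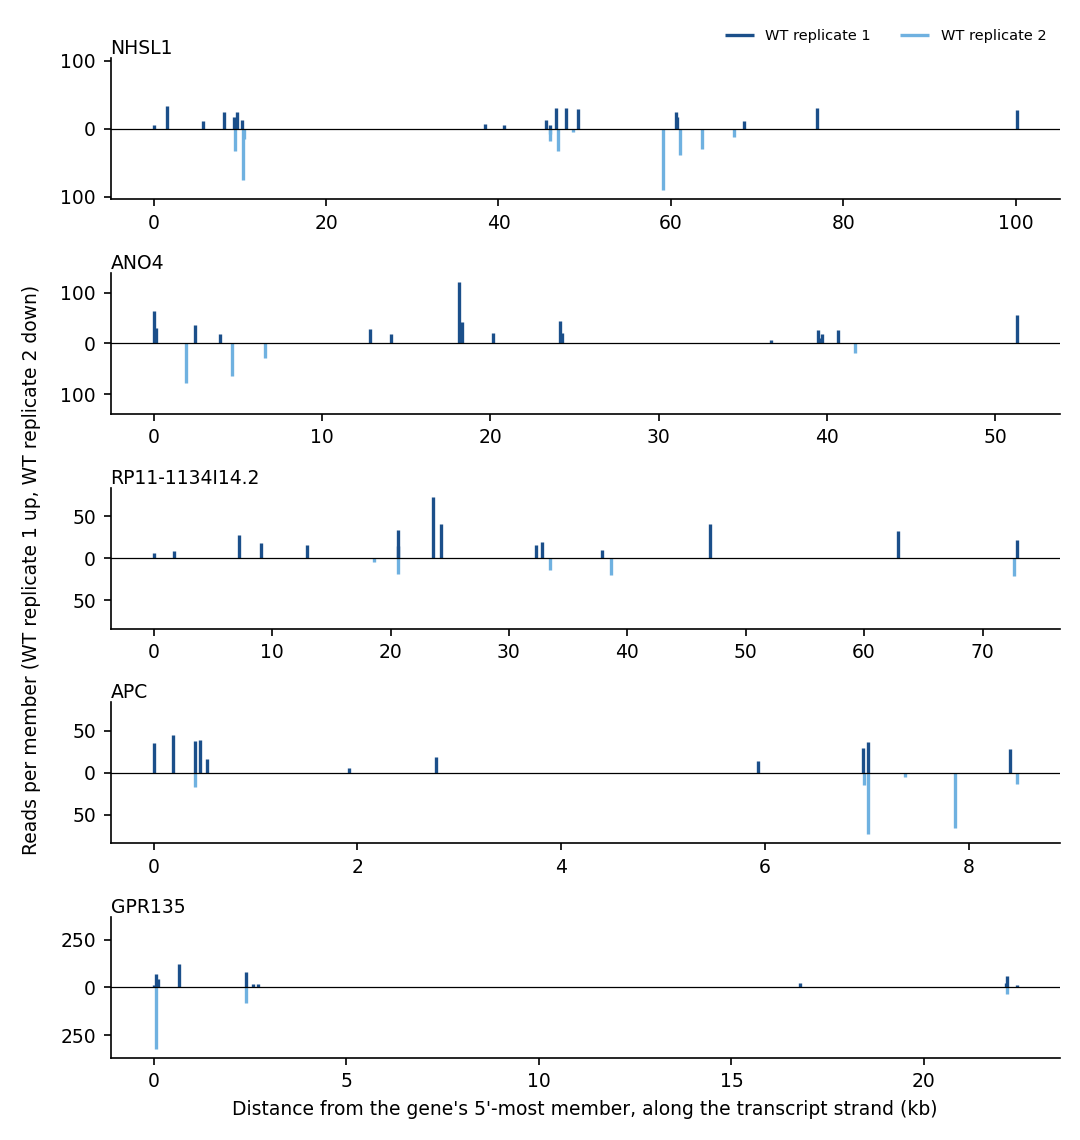
Members along the 5 genes with the most members, as distance in kb from the member nearest the 5′ end, with reads in WT rep 1 drawn upward and in WT rep 2 downward. Members of NHSL1 and ANO4 spread over 100155 nt and 51292 nt in WT rep 1, and those of GPR135 fall at both ends of 22437 nt.

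In all, 46.8% of members (40.9 to 52.8%) in WT rep 1 and 48.3% (38.2 to 58.5%) in WT rep 2 lay in genes that also had an intron cluster in that library. Of all clusters given to a gene, 73317 of 79861 in WT rep 1 and 22569 of 25010 in WT rep 2 were themselves intron clusters. Each intron cluster places its own gene among genes with an intron cluster, which a member cannot do. The share of all gene clusters in such genes is therefore high by definition and gives no background for the member shares. For decay members the shares were 61.4% and 66.7%, and for retained-intron members 54.9% and 51.5%. None of the 41 and 12 unprocessed pseudogene members did. In RP11-1134I14.2 every cluster given to the gene, 15 and 5, carried the pseudogene value. How values were assigned within such genes is not given in the sources used here, so this absence is not read as a result about binding. GPR135, TIMM10B, PSMB4, TPT1-AS1, MAGI2-AS3 and AC005154.6 had members without an intron cluster in either WT library.

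Members were then placed against the gene intervals of RefSeq (GRCh38.p14), which served for distances only because the files use an older patch of the same assembly. Names matched for 213 members of WT rep 1, 68 of WT rep 2 and 2 of KO. Of these, 59 (27.7%, 22.1 to 34.1%) in WT rep 1 and 15 (22.1%, 13.8 to 33.3%) in WT rep 2 lay outside the interval of the gene they were named for. Over all gene clusters the shares were 0.793% and 0.681%, and 0.77% in KO. Intron clusters gave 0.284% and 0.253%. Counted by gene, 30 of 98 genes in WT rep 1 and 12 of 38 in WT rep 2 had such a member. The intervals of the members lie far above the values for all gene clusters in both WT libraries.

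Decay members accounted for most of them. Of the matched decay members, 44 of 123 (35.8%, 27.9 to 44.6%) in WT rep 1 and 11 of 32 (34.4%, 20.4 to 51.7%) in WT rep 2 lay outside. Of retained-intron members, 13 of 65 (12.1 to 31.3%) and 3 of 27 (3.85 to 28.1%) did. They lay mostly beyond the 3′ end: 50 members were downstream and 9 upstream in WT rep 1, and 14 and 1 in WT rep 2. The median distance was 6072 nt and 4606 nt. Another RefSeq gene on the same strand covered 8 of the 50 and 2 of the 14 downstream members. The authors' transcript models were not used here, so how far each annotated transcript reaches was not tested.

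GPR135 is the clearest case. Of its members, 7 of 11 in WT rep 1 and 2 of 3 in WT rep 2 lay downstream, from 1426 nt to 21439 nt past the RefSeq end, and 2 of its 3 recurring positions are among them. TIMM10B had all its members 106 to 514 nt downstream. PTS, an enzyme of tetrahydrobiopterin synthesis, had 6 members in WT rep 1, 1531 to 23073 nt downstream, and 1 in WT rep 2 at 24723 nt. POLR2M had 3 members in WT rep 1, from 19397 nt to 46087 nt, and 1 in WT rep 2 at 19678 nt. These genes had downstream members in both WT libraries. PTS and POLR2M were picked after their values were seen.

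The BRD9 members lay in the interval of another gene. All 4 of its members in WT rep 1, the 1 in WT rep 2 and the 1 in KO lay 4744 to 12161 nt downstream of BRD9 and inside ZDHHC11, a gene of the palmitoyltransferase family on the same strand. Which of the genes these reads came from cannot be told apart in the files.

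**Figure D5:**
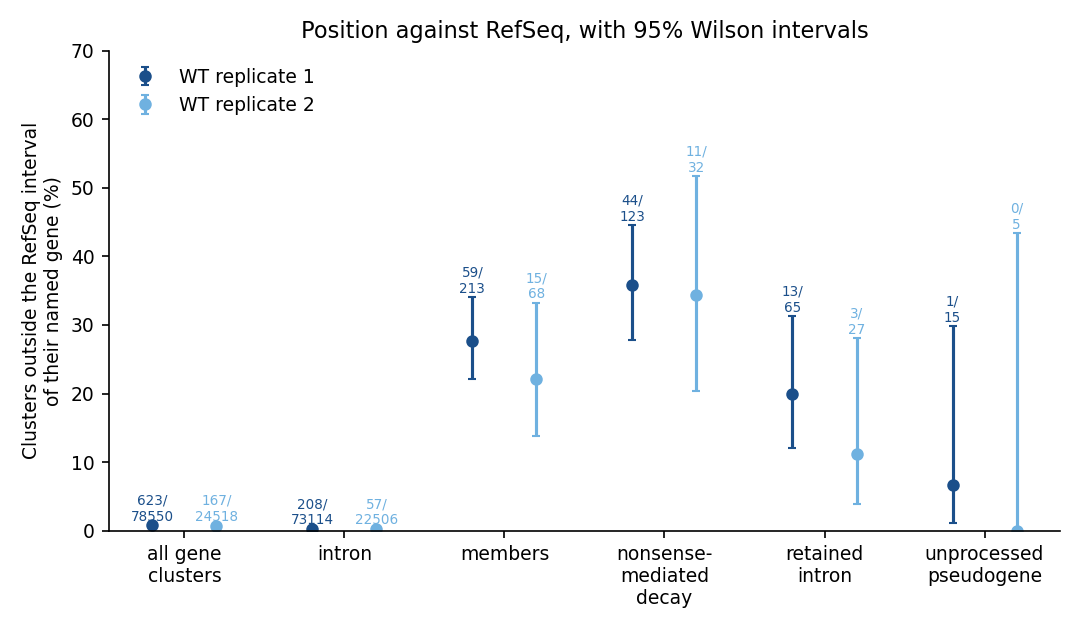
Share of clusters (percent) that lay outside the RefSeq interval of the gene they were named for, in the WT libraries, with 95% Wilson intervals and counts. Decay members stand at 35.8% and 34.4%, all gene clusters at 0.793% and 0.681%.

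Pseudogene members carry a further uncertainty, because a short read can match a copy elsewhere. A stretch of 20 nt was shared with a cluster at another locus by 14 of 267 members (5.24%, 3.15 to 8.61%) in WT rep 1 and 4 of 89 (4.49%) in WT rep 2, against 3.83% and 3.37% of all clusters. Among pseudogene members it was 5 of 56 and 2 of 17. The comparison sees only copies that were themselves called as clusters.

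Nuclear pseudogenes of mitochondrial genes gave 5 members in WT rep 1 and 2 in WT rep 2. In WT rep 1 their median converted share was 65.9%, against 95.1% for the 51 other pseudogene members. MTCO1P12 (81 reads) had 30.9% and shared 18 nt with a cluster on the mitochondrial gene MT-CO1. MTND2P28 had members of 117 and 54 reads, with 43.6% and 94.4%, and the latter shared 17 nt with an MT-ND2 cluster. MTCO1P2 (27 reads) had 92.6%. In WT rep 2, MTND4P35 (105 reads) had 3.81% and shared 22 nt with an MT-ND4 cluster, and MTND4P12 had 74.6%. The deeper MTND2P28 member, MTCO1P2 and both MTND4P12 members shared 9 or 10 nt at most with any mitochondrial cluster. Mitochondrial sequence outside called clusters is not covered by these lengths, so they do not measure likeness to mitochondrial RNA. Whether reads of these members came from mitochondrial RNA was not tested.

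Last, members were looked for in lists of genes whose transcripts are known for such isoforms. Of 52 splicing regulators, 45 had a cluster of some kind in WT rep 1, 33 in WT rep 2 and 8 in KO, and 1 had members: TIAL1, itself a binder of U-rich RNA, with 17 reads in WT rep 1 and 72 in WT rep 2. Its members abut without overlap, as the sequences above show, and lie 296 nt and 270 nt past the RefSeq start. Of 16 factors of nonsense-mediated decay and the exon junction complex, 14, 13 and 1 had a cluster and 0 had a member. Of 40 host genes of small nucleolar RNAs, 15, 6 and 0 had a cluster, and 1, the nucleolin gene NCL, had a member, with 8 reads in WT rep 1, of which 25% were converted. That member lay 14979 nt upstream of the RefSeq interval of NCL. In addition, 4 members of WT rep 1 named for SCARNA15, with 79, 74, 22 and 7 reads, lay outside its RefSeq interval and inside SNHG21, a gene of the same list that no member was named for; they were chosen after their values were seen. Ribosomal protein pseudogenes, the most numerous processed pseudogenes, had 0 members, with 4 and 1 of them holding a cluster of another value in the WT libraries. These shares stand beside the 1.41% and 0.842% of all genes with clusters that had a member.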

How the data were processed

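The deposited tables list clusters of overlapping PAR-CLIP reads, called by the authors in each library separately. Their deposited counts (reads, distinct read sequences, converted positions, converted and unconverted T events) are whole numbers, unnormalised as the file headers and values show. A deposited fraction gives, per cluster, the part of its reads carrying a T-to-C change. The submitters' processing notes name cutadapt 1.8.3, Bowtie 1.1.2 and hg38 (GRCh38.p5); the cluster caller and annotation release are not given in the sources used here. Each cluster kept its 1 annotation value and gene name. Members and gene lists were chosen with earlier results of these data known. Genes named are, per value, the 5 with the highest geometric mean of member reads over the WT libraries (where under 3 qualify, the 3 with most reads), those with KO members, those of the 10 deepest WT pairs, the 5 with most members, and listed genes with members in both WT libraries; others were chosen after their values were seen, and a few genes and members that this rule names are not reported here. Overlap meant at least 1 nt on the same strand. Wilson intervals are at 95%. Procedures were tested on simulated data. Alternatives included at least 10 reads, at least 3 converted positions, and each gene counted once. Python 3.11.15, numpy 2.4.6, pandas 2.3.3, scipy 1.17.1 and matplotlib 3.10.9 were used.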

Additional observations from a re-analysis of the deposited data

How the results depend on the processing

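Of 55 recomputed values, 37 moved by no more than 1 SD of the WT libraries or stayed within 1.5 times, and 18 moved further. Not all of the 37 could have moved. Each of 2 libraries lies within 1 SD of their mean, so leaving out 1 WT library could not move a mean further. Including hyphenated values could not change any value. The count of 37 is therefore no measure of stability. With at least 3 converted positions, the member share of clusters was 0.251%, overlap with the other WT library 20.3%, T content 43.2%, the pentamer rate 36.7 per 1000, median reads 54.75, genes in both WT libraries 6 (from 35), members in genes with intron clusters 37.1% and listed genes with members 1. With each gene counted once, the share was 1.13%, converted T events 6.99%, T content 39.0%, median reads 46 and members in intron-cluster genes 38.5%. With at least 10 reads, that last share was 45.7% and listed genes with members 1. Leaving out 1 WT library gave 1 to 2 listed genes. Chosen after seeing the data, leaving out PSMB4 gave 8.14% converted T events, and leaving out the 5 genes with most members gave 39.3% T; leaving out mitochondrial pseudogenes gave 7.54% converted. Including hyphenated values changed nothing, since 0 of them hold the words used. No paired analysis was possible because KO is 1 library and no test was run. The limits are the 3 KO members, 2 WT libraries whose cluster numbers differ, unknown depth, and small counts per gene and value.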
